A study of Mus musculus with 10 samples.

Results

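Imprinted genes are transcribed mainly from one parental chromosome, and 39 of them, chosen by name, were followed here in mouse somatosensory cortex after conditional deletion of Nsd1. They were classed as 21 genes of paternal expression, 15 of maternal expression and 3 mixed by tissue or isoform (Grb10, Gnas and Ddc). The classes come from general knowledge of these genes and not from these data. Several of the 15 also depend on tissue, among them Ube3a, Blcap, Igf2r, Commd1 and Trappc9. All 39 names were found in both tables, among 23283 distinct named genes and joined loci at 2.5 months and 54427 named genes at 3 months. A joined locus is a row in which the authors' table gives a single value to several overlapping genes.

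The Nex groups were 3 Nsd1Nex-cKO libraries (Nex_cKO) and 3 control libraries (Nex_Ctrl) at 2.5 months, of which control replicates 1 and 2 were Nsd1fl/+ and replicate 3 was Nsd1fl/fl. The Camk2a groups were 2 Nsd1Camk2a-cKO libraries (Camk2a_cKO) and 2 Nsd1fl/+ control libraries (Camk2a_Ctrl) at 3 months. All controls therefore carried at least 1 floxed Nsd1 allele, and whether they carried Cre is not given in the labels. Nex-Cre is made from the Neurod6 locus in excitatory neurons from soon after their last division, and Camk2a-Cre in excitatory neurons later, so that inhibitory neurons, glia and vessels in the same tissue keep the gene. The labels do not say whether each library came from a separate mouse, so p-values measure the spread between libraries. In a whole-tissue sample, fewer cells of a type and less RNA per cell cannot be told apart.

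The parental mark at most imprinted loci is DNA methylation laid down in the egg or sperm and kept through later cell divisions, at control regions that set which allele is transcribed across a whole domain. Methylation of histone H3 at lysine 36, which NSD1 catalyses, guides the DNA methyltransferases that write such marks in germ cells. The question here is whether transcript levels of imprinted genes differed once Nsd1 was deleted in neurons. Levels were read per locus and not per allele, so these data hold no measure of which parental copy was transcribed.

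In the Nex model, 33 rows for 30 of the members reached the level needed for testing, and 2 of them were called: Nnat was higher and the joined locus of Mirg was lower. That is 6.06% of the rows, against 8.53% of all 12528 rows tested in the same comparison (4.47% higher and 4.06% lower). In the Camk2a model 0 of 26 members were called, where the background was 0% of 12919 rows. A call means an adjusted p under 0.05 from limma on log2(FPKM + 1), adjusted by Benjamini-Hochberg over the whole table, and "higher", "lower", "rose" and "fell" are used of calls.

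The median log2 change of the 33 rows was -0.02, beside -0.04 over all rows tested in the Nex model. The median size of the change, whatever its sign, was 0.10 for the imprinted rows and 0.13 over all rows. At an unadjusted p under 0.05 there were 11 of 33 rows (33.3%), against 23.5% of all rows. Groups that did not overlap were seen at 9 of 33 rows (27.3%), against 30.4% of all rows. Of the 18 rows of paternally expressed genes, 8 had a change above 0 and 10 below, with a median of -0.01. Of the 12 rows of maternally expressed genes, 2 had a change above 0 and 10 below, with a median of -0.10. Several of these 12 rows lie in the same domain or belong to the same gene, and so they are not separate observations. Over all 12528 rows tested, 5071 had a change above 0 and 7457 below.

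**Figure D1:**
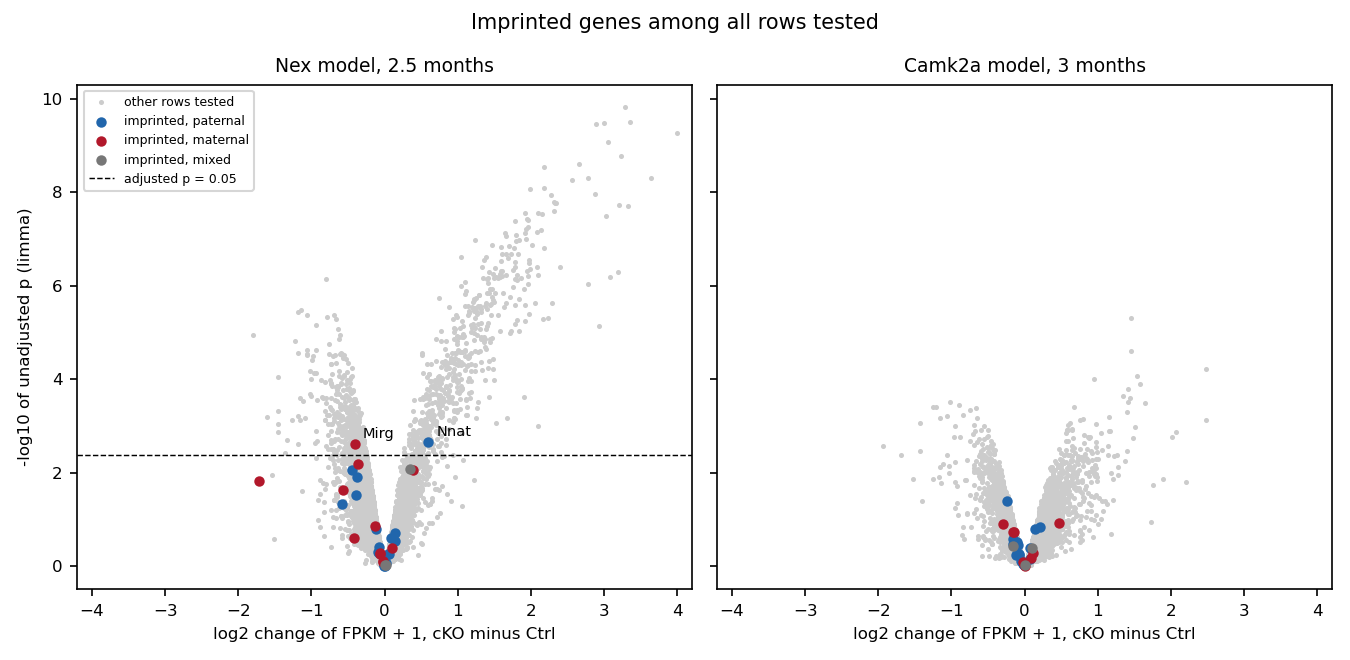
Each point is a row tested, with the log2 change of FPKM + 1 (cKO minus control) on the x axis and -log10 of the unadjusted limma p on the y axis, for the Nex model (left) and the Camk2a model (right). Imprinted genes are coloured by expressed allele and other rows are grey. Nnat and Mirg are the 2 imprinted points above the dashed line that marks the adjusted p of 0.05 in the Nex model, and no such line exists on the right because 0 rows passed there.

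Among the Nex libraries, cKO replicate 3 was unlike the rest: rows without a gene name held 41.6% of its summed FPKM, against 2.33% to 19.4% in the other Nex libraries. It was also the only Nex library with the Y-linked transcript Ddx3y (16.2 FPKM, listed at 0 in the others) and with Xist near 0 (0.0035 FPKM, against 33.6 to 46.5 FPKM). It held the highest or the lowest value at 20 of the 33 imprinted rows (60.6%), and at 56.9% of all rows. Nsd1 was read only as a joined locus with Prelid1 at 2.5 months, with 91.0, 118.1 and 105.6 FPKM in Nex_cKO and 129.9, 125.1 and 141.4 FPKM in Nex_Ctrl (adjusted p = 0.0863, limma). At 3 months Nsd1 had 4.31 and 4.99 FPKM in Camk2a_cKO and 5.61 and 8.87 FPKM in Camk2a_Ctrl (adjusted p = 0.685). The joined value cannot be divided between Nsd1 and Prelid1, and so is no measure of Nsd1 alone. Both values cover whole genes, whose level a deletion of part of Nsd1 need not remove. Neurod6, the gene that carries Nex-Cre, was lower, with 17.2, 22.2 and 14.6 FPKM in Nex_cKO and 34.0, 29.4 and 31.5 FPKM in Nex_Ctrl (log2 change -0.80, adjusted p = 0.00718). Depth was 16901717 to 20074933 recovered reads in the 3-month libraries and is unknown at 2.5 months. Of 8 markers of excitatory neurons 1 was higher (Neurod2) and 2 were lower (Tbr1 and the driver gene Neurod6 itself) in the Nex model. The summed level of the 8 was 1303 to 1432 FPKM in Nex_cKO and 1462 to 1563 FPKM in Nex_Ctrl. Of 3 red blood cell markers tested 3 were lower, with sums of 54.2 to 97.4 FPKM in Nex_cKO and 130 to 287 FPKM in Nex_Ctrl. The astrocyte marker Gfap was higher (log2 change 0.82, adjusted p = 0.00605), the only one of 6 called. Of 8 rows of oligodendrocyte markers 0 were higher and 1 was lower, with a median log2 change of -0.28. Their sums were 1050 to 1269 FPKM in Nex_cKO and 1358 to 1470 FPKM in Nex_Ctrl over 7 rows of a single gene. The part of these markers in the results was not tested.

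Sequences are shown for the called genes. Nnat (chromosome 2, 157560078 to 157562522, plus strand, GRCm38) lies inside Blcap (chromosome 2, 157556362 to 157571274, minus strand), with all 2445 bases overlapping. The promoter windows of this nested pair, of which 1 member was called and the other was not, run from 250 bases before to 50 bases after the RefSeq start (GRCm38.p6), each 5′ to 3′ on its own strand, with CpG dinucleotides, the bases at which DNA methylation occurs, in capitals.
Nnat, chr2:157559828-157560127, plus strand: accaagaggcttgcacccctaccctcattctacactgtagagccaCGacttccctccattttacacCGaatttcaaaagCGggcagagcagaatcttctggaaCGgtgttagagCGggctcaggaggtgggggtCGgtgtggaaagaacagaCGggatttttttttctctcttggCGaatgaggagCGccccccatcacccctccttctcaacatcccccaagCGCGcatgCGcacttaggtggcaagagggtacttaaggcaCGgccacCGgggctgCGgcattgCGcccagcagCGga
Blcap, chr2:157566312-157566611, minus strand: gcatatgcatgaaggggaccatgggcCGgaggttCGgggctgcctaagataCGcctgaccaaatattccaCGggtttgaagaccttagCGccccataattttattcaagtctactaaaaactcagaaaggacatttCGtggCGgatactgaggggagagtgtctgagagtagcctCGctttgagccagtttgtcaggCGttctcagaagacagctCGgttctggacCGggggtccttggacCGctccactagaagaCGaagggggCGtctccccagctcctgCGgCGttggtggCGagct

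Each window held 17 CpG dinucleotides. RefSeq promoter windows were found for 32 of the 39 members (50 windows), with a median of 14.5 CpG dinucleotides, against 7.0 over all 32851 windows. The letters TGCCGC, which ZFP57, a protein that keeps imprints in the early embryo, binds when methylated, were the only motif searched, on both strands. They were present once in the Nnat window, on the opposite strand to the one printed, and not in the Blcap window, in 13 of 50 windows of the members (26%) and in 11.6% of all windows. These shares are not matched for CpG content, though the motif holds a CpG. Windows can also overlap and share matches, as for Mest (starts 30737800 and 30737803). A match is a description of these letters and not a site of binding.

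Mirg (chromosome 12, 109729764 to 109749460, plus strand, GRCm38) is a maternally expressed long RNA of the Dlk1-Dio3 domain that carries miRNA hairpins, and its row joined 14 miRNA names with it. RefSeq held 26 mature sequences of these 14 hairpins, with 25 different seeds (bases 2 to 8, in capitals). The pair that shares a seed, miR-453 and miR-496a-5p, is printed with miR-134-5p, which is known to limit the growth of dendritic spines, and with miR-154-3p and miR-485-3p from the same cluster, all on the plus strand of chromosome 12 (RefSeq, GRCm38.p6).
mmu-miR-453, chr12:109735669-109735692: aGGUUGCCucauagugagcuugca
mmu-miR-496a-5p, chr12:109739132-109739152: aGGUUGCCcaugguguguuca
mmu-miR-134-5p, chr12:109734145-109734166: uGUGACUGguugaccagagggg
mmu-miR-154-3p, chr12:109738474-109738495: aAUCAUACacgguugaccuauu
mmu-miR-485-3p, chr12:109734946-109734967: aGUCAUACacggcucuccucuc

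The mature miRNAs themselves were not measured, since the FPKM of the row counts fragments of long RNA.

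Nnat, which encodes neuronatin, a small membrane protein of the endoplasmic reticulum and the paternally expressed member of the pair, had 34.7, 34.2 and 24.4 FPKM in Nex_cKO and 21.4, 21.4 and 17.6 FPKM in Nex_Ctrl. All 3 cKO libraries lay above all 3 controls, with Nex_cKO replicate 3 the lowest of the cKO libraries and nearest to the controls. The means were 31.1 ± 5.78 FPKM in Nex_cKO and 20.1 ± 2.19 FPKM in Nex_Ctrl (SD, n = 3 each), a log2 change of 0.59 (SE 0.14, 95% interval 0.28 to 0.91, limma adjusted p = 0.0329). The call was kept without Nex_cKO replicate 3 (log2 change 0.75, adjusted p = 0.00185). It was lost without each of the other libraries, with adjusted p = 0.116 and 0.066 without Nex_cKO replicates 1 and 2, and 0.0809, 0.0731 and 0.125 without Nex_Ctrl replicates 1, 2 and 3. It was also lost with no filter on low values (adjusted p = 0.0594).

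Blcap, the gene around Nnat, expressed mainly from the maternal allele in brain, had 37.3, 36.5 and 31.2 FPKM in Nex_cKO and 34.4, 34.5 and 37.3 FPKM in Nex_Ctrl. The groups overlapped, and the log2 change was -0.02 (95% interval -0.21 to 0.17). The library labels name no strand-specific kit. Whether reads were told apart where genes overlap on opposite strands is therefore not known, here and at Airn with Igf2r. These overlaps are of whole gene spans, introns included, and overlap of exons was not examined. Markers of GABAergic neurons, which keep Nsd1, summed to 669.9 to 1055 FPKM in Nex_cKO and 917 to 1057 FPKM in Nex_Ctrl over 9 rows of a single gene, with 1 of 10 rows higher (Gad2) and 0 lower. Markers of the hypothalamus, where Nnat is abundant, summed to 6.31, 13.5 and 7.48 FPKM in Nex_cKO and 4.78, 3.28 and 3.02 FPKM in Nex_Ctrl over 11 rows of a single gene. Of 3 rows tested 1 was higher, that of Avp (vasopressin), with 1.91, 9.34 and 4.17 FPKM in Nex_cKO and 0.973, 0 and 0 FPKM in Nex_Ctrl. Avp could enter the test only through its cKO libraries. Sim1 was listed at 0 in every library. Oxt was joined with Mrps26, a mitochondrial ribosomal gene, and is left out of the sum, while Avp is part of it. Means of untested markers lay both ways, as for Trh (0.918 FPKM in Nex_cKO and 0.636 in Nex_Ctrl) and Agrp (0.526 and 0.801). At 3 months the markers summed to 5.35 and 4.14 FPKM in Camk2a_cKO and 1.85 and 2.08 FPKM in Camk2a_Ctrl over 12 rows, Oxt included. Within these sums Avp had 2.34 and 1.65 FPKM in Camk2a_cKO and 0 and 0.263 FPKM in Camk2a_Ctrl. Oxt had 1.05 and 0.554 FPKM in Camk2a_cKO and 0 FPKM in each Camk2a_Ctrl library. Means of the rest lay both ways, with those of Hcrt, Hdc, Otp and Trh below the controls. The part of these markers in the values of Nnat was not tested.

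The Dlk1-Dio3 domain on chromosome 12 makes maternally expressed noncoding RNAs (Meg3, Rian and Mirg) and the paternally expressed proteins Dlk1, a Notch-like ligand, and Dio3, which inactivates thyroid hormone. The joined locus of Mirg had 10.5, 12.8 and 10.03 FPKM in Nex_cKO and 14.7, 15.6 and 14.8 FPKM in Nex_Ctrl. Every cKO library lay below every control. The means were 11.1 ± 1.49 FPKM in Nex_cKO and 15.0 ± 0.512 FPKM in Nex_Ctrl (SD, n = 3 each), a log2 change of -0.41 (SE 0.10, 95% interval -0.63 to -0.19, limma adjusted p = 0.0354).

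The call of the Mirg locus was kept without Nex_cKO replicate 2 (adjusted p = 0.00788). It was lost without Nex_cKO replicates 1 and 3 (adjusted p = 0.121 and 0.0566) and without Nex_Ctrl replicates 1, 2 and 3 (0.103, 0.125 and 0.107). It was also lost with no filter on low values (0.0515), with quantile normalization (0.0656) and with median ratio rescaling (0.0531).

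Upstream on the same strand, the joined locus of Rian, which hosts small nucleolar RNAs, had 157.1, 165.8 and 182.8 FPKM in Nex_cKO and 186.1, 180.1 and 187.4 FPKM in Nex_Ctrl. Nex_cKO replicate 3 fell within the range of the controls, and the log2 change of -0.13 was not called (95% interval -0.32 to 0.05, adjusted p = 0.371), and was 0.03 with quantile normalization. A second row named Rian alone had 3.06, 9.45 and 0.403 FPKM in Nex_cKO and 11.3, 12.3 and 12.02 FPKM in Nex_Ctrl, with wide spread among the cKO libraries. Its groups did not overlap, and its log2 change of -1.72 (SE 0.57) missed the threshold (adjusted p = 0.109, limma). It passed without Nex_cKO replicate 2 (log2 change -2.43, adjusted p = 0.00527), and was -0.98 (adjusted p = 0.105) without Nex_cKO replicate 3. Leaving out Nex_cKO replicate 2 also raised the calls over all rows from 1069 to 1265. The joined locus of Meg3, the first gene of this chain, had 254.3, 282.4 and 318.1 FPKM in Nex_cKO and 234.9, 289.1 and 272.5 FPKM in Nex_Ctrl. These groups overlapped (log2 change 0.10, 95% interval -0.16 to 0.36), as did those of a second row named Meg3 alone (log2 change -0.42, SE 0.34, adjusted p = 0.503).

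The 3 noncoding RNAs thus gave values of 0.10 (Meg3), -0.13 (Rian) and -0.41 (Mirg) for their main rows, of which only the last passed. Differences between these 3 values were not tested. The protein-coding members of the domain were too low to test at 2.5 months, with Dlk1 at 0.0123 to 0.0262 FPKM in Nex_cKO and 0.025 to 0.138 FPKM in Nex_Ctrl. Dio3 was listed at 0 to 0.19 FPKM in Nex_cKO and 0.101 to 0.28 FPKM in Nex_Ctrl.

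**Figure D2:**
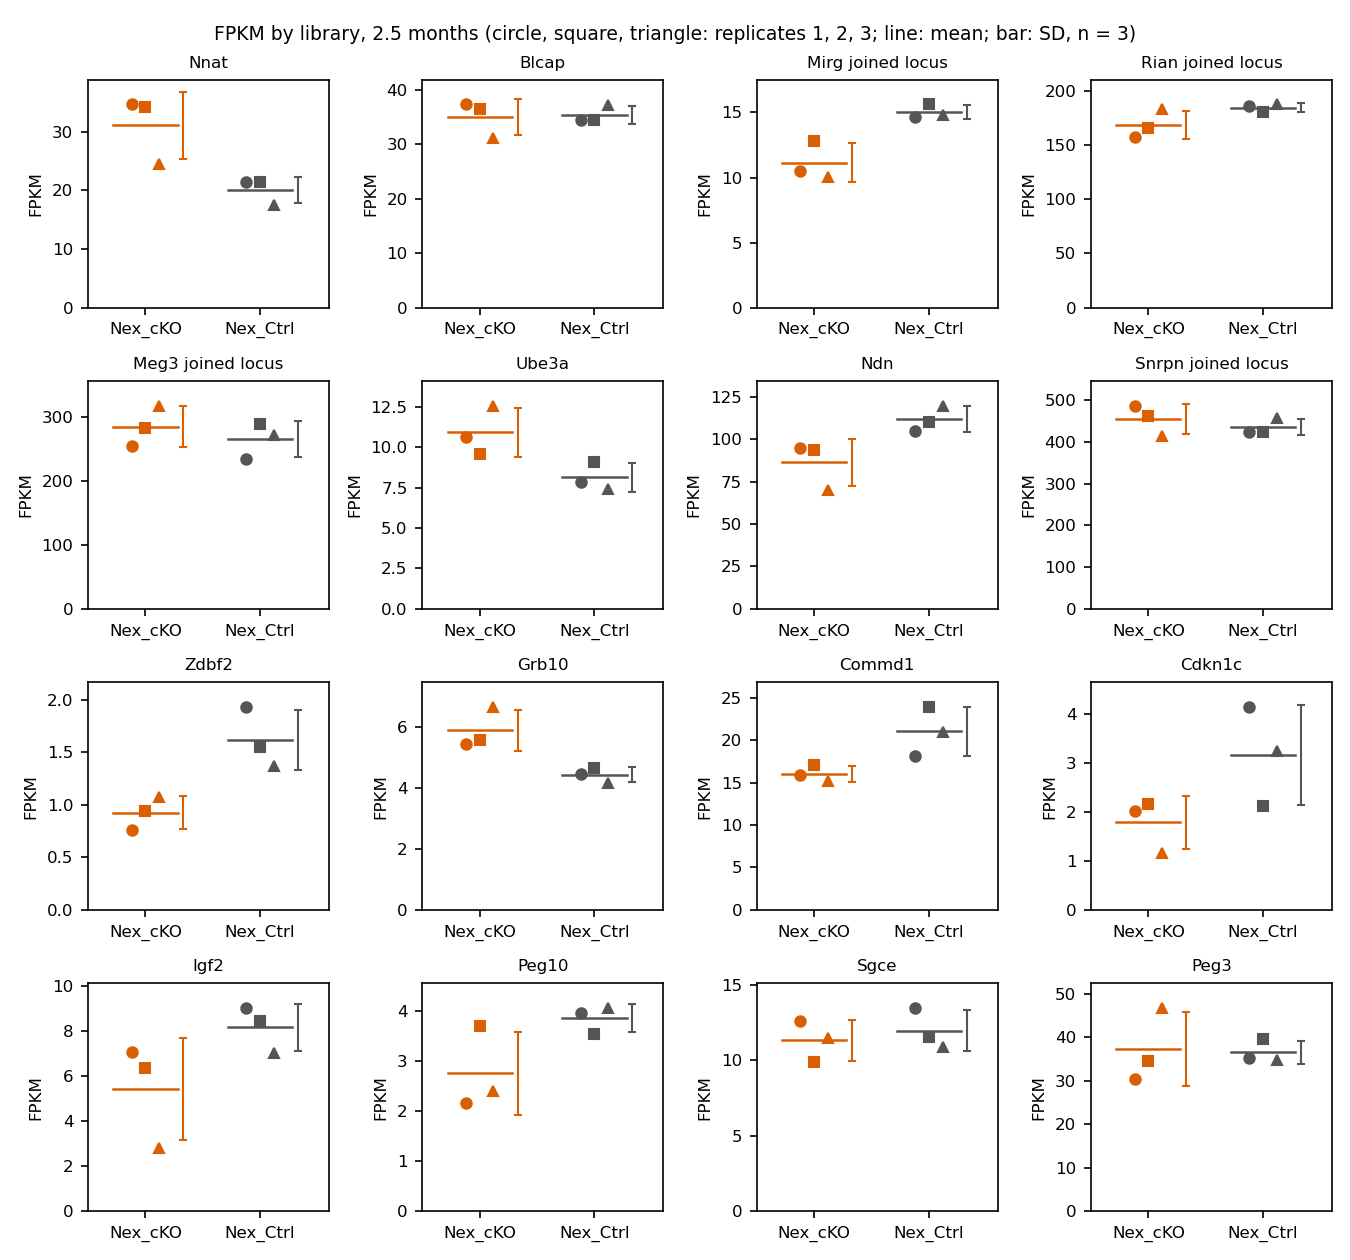
FPKM in each of the 6 Nex libraries (y axis, from 0) for 16 rows of imprinted genes, Nex_cKO left of Nex_Ctrl, with symbols for replicates 1 to 3, a line at the mean and a bar of 1 SD (n = 3). Nnat lies higher and the Mirg locus lower in all 3 cKO libraries, while Blcap, Sgce, Peg3 and the Meg3 and Snrpn loci overlap between the groups.

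The Prader-Willi and Angelman domain on chromosome 7 holds paternally expressed Snrpn, a splicing protein, Ndn, the growth suppressor necdin, and Magel2, a regulator of ubiquitin ligases, beside Ube3a, a ubiquitin ligase read from the maternal allele in neurons. Ube3a had 10.6, 9.56 and 12.6 FPKM in Nex_cKO and 7.85, 9.09 and 7.42 FPKM in Nex_Ctrl. Its groups did not overlap, but the smallest gap, between Nex_cKO replicate 2 and Nex_Ctrl replicate 2, was narrow. The log2 change of 0.38 (SE 0.11, 95% interval 0.12 to 0.64) missed the threshold (adjusted p = 0.078) and passed without Nex_cKO replicate 2 (log2 change 0.47, adjusted p = 0.0423). With each library left out in turn, the adjusted p of Ube3a ran from 0.0423 to 0.243 (limma).

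Ndn had 94.9, 93.8 and 70.2 FPKM in Nex_cKO and 104.9, 110.4 and 119.8 FPKM in Nex_Ctrl. The groups did not overlap and Nex_cKO replicate 3 lay lowest, with a log2 change of -0.38 (SE 0.12, adjusted p = 0.0948). The joined locus of Snrpn, which also holds Snurf and the long RNA Snhg14, whose distal part runs antisense to Ube3a in neurons, had 487.0, 461.5 and 414.9 FPKM in Nex_cKO and 423.6, 423.2 and 456.5 FPKM in Nex_Ctrl. Its groups overlapped (log2 change 0.06, 95% interval -0.16 to 0.28). Magel2 was untested, at 0.105 to 0.143 FPKM in Nex_cKO and 0.0364 to 0.129 FPKM in Nex_Ctrl.

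On proximal chromosome 7, Peg3, a zinc finger protein expressed from the paternal allele, and Usp29, a deubiquitinase that starts next to it on the opposite strand, were read at unlike levels. Peg3 had 30.4, 34.5 and 46.8 FPKM in Nex_cKO and 35.2, 39.6 and 34.9 FPKM in Nex_Ctrl, with Nex_cKO replicates 1 and 3 the lowest and the highest of the 6. Its log2 change was 0.01 (95% interval -0.32 to 0.33). That of Usp29 was 0.15 (95% interval -0.09 to 0.39), from 4.24 ± 0.462 FPKM in Nex_cKO and 3.73 ± 0.293 FPKM in Nex_Ctrl (SD, n = 3 each). The maternally expressed Zim1 of this domain stayed under the level for testing in every library (0.306 to 0.529 FPKM).

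The domain of Peg10 and Sgce on chromosome 6 has a shared control region between these 2 paternally expressed genes. Peg10, a protein derived from a retrotransposon, had 2.17, 3.70 and 2.40 FPKM in Nex_cKO and 3.97, 3.56 and 4.07 FPKM in Nex_Ctrl, and the groups overlapped through Nex_cKO replicate 2. Its log2 change of -0.39 (SE 0.15) missed the threshold (adjusted p = 0.16), and passed without Nex_cKO replicate 2 (log2 change -0.57, adjusted p = 0.0206). With each library left out in turn, the adjusted p of Peg10 ran from 0.0206 to 0.361 (limma). Sgce, the epsilon-sarcoglycan of the cell membrane, had 12.6, 9.88 and 11.5 FPKM in Nex_cKO and 13.5, 11.6 and 10.8 FPKM in Nex_Ctrl (log2 change -0.07, 95% interval -0.32 to 0.18). Asb4, a ubiquitin ligase subunit, was untested at 0.021 to 0.186 FPKM in Nex_cKO and 0.213 to 0.257 FPKM in Nex_Ctrl, and the calcitonin receptor Calcr was above 0 in 1 library only (0.0171 FPKM in Nex_Ctrl replicate 3).

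The imprinted growth genes on distal chromosome 7 were low. Igf2, a fetal growth factor that in adult brain is made mainly by the meninges and choroid plexus, had 7.10, 6.37 and 2.82 FPKM in Nex_cKO and 9.04, 8.46 and 7.02 FPKM in Nex_Ctrl. Nex_cKO replicate 3 was far below the others, and replicate 1 overlapped the controls. The log2 change was -0.58 (SE 0.25, 95% interval -1.15 to -0.01, adjusted p = 0.207), and it shrank to -0.24 without Nex_cKO replicate 3.

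Markers of meninges and perivascular fibroblasts summed to 76.9, 116.6 and 42.6 FPKM in Nex_cKO and 121.5, 84.0 and 89.8 FPKM in Nex_Ctrl over 13 rows of a single gene, with Nex_cKO replicate 3 the lowest, as for Igf2. Col1a1 was joined with the synaptic gene Ppp1r9b and is left out of the sum. Of 12 rows tested 0 were called, with a median log2 change of -0.25, and 0 of 14 were at 0 in every library. Markers of choroid plexus summed to 3.28 to 5.55 FPKM in Nex_cKO and 1.80 to 1.87 FPKM in Nex_Ctrl, with 0 of 1 tested called and 1 of 10 at 0 in every library. Their largest means in Nex_cKO were those of Ttr (1.47 FPKM, 0.851 in Nex_Ctrl), Folr1 (1.30 and 0.128) and Kl (0.920 and 0.257). Means of Clic6 (0.0191 and 0.0941) and Prlr (0.0508 and 0.115) lay the other way. The part of meningeal and choroid plexus markers in the Igf2 values was not tested. H19, the maternally expressed noncoding RNA beside Igf2, was listed at 0 to 0.0262 FPKM in Nex_cKO and 0 to 0.0778 FPKM in Nex_Ctrl.

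In the neighbouring domain, Cdkn1c, a maternally expressed inhibitor of the cell cycle, had 2.03, 2.17 and 1.17 FPKM in Nex_cKO and 4.14, 2.11 and 3.23 FPKM in Nex_Ctrl. The groups overlapped at Nex_Ctrl replicate 2, and the log2 change of -0.57 (SE 0.21) was not called (adjusted p = 0.139). Kcnq1ot1, the paternal noncoding RNA that silences this domain in cis, was joined with Kcnq1 and had a log2 change of -0.01 (95% interval -0.43 to 0.40). Slc22a18, a transporter, was untested at 0.142 to 0.255 FPKM in Nex_cKO and 0.30 to 0.473 FPKM in Nex_Ctrl. Phlda2, a gene of placental growth, was listed at 0 in every library of both tables.

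Among the remaining single genes, 3 had adjusted p-values between 0.0659 and 0.0768, and in each of them all cKO libraries lay on the same side of all controls. Zdbf2, a paternally expressed zinc finger gene on chromosome 1, had 0.76, 0.946 and 1.08 FPKM in Nex_cKO and 1.94, 1.55 and 1.37 FPKM in Nex_Ctrl (log2 change -0.44, SE 0.13, adjusted p = 0.0768), and passed with quantile normalization (log2 change -0.71, adjusted p = 0.0307). It entered the test mainly through its controls, since only 1 cKO library reached FPKM 1. Its other row, joined with Gpr1, was untested and lay the other way, at 0.425 to 1.11 FPKM in Nex_cKO and 0.265 to 0.775 FPKM in Nex_Ctrl.

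Grb10, an adaptor of the insulin receptor read from the paternal allele in neurons and from the maternal allele elsewhere, had 5.44, 5.57 and 6.66 FPKM in Nex_cKO and 4.46, 4.66 and 4.17 FPKM in Nex_Ctrl. All 3 cKO libraries were above the controls (log2 change 0.34, SE 0.10, adjusted p = 0.0766). Ddc next to it, which makes dopamine and serotonin, had a change of 0.01 (95% interval -0.30 to 0.32). Commd1, a copper and trafficking protein, had 15.9, 17.1 and 15.2 FPKM in Nex_cKO and 18.2, 23.9 and 21.0 FPKM in Nex_Ctrl in its own row (log2 change -0.36, SE 0.10, adjusted p = 0.0659). That row passed without Nex_Ctrl replicate 1 (log2 change -0.46, adjusted p = 0.0395), and its adjusted p ran up to 0.194 with other libraries left out (limma). The row joining Commd1 with Zrsr1, the paternally expressed gene in its intron, had a change of -0.02 (95% interval -0.20 to 0.15).

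Several abundant imprinted genes had 95% intervals that included 0 at 2.5 months. Gnas, which encodes the stimulatory G protein alpha subunit, had 821 ± 14.9 FPKM in Nex_cKO and 817 ± 36.9 FPKM in Nex_Ctrl (SD, n = 3 each; log2 change 0.01, 95% interval -0.22 to 0.24). Nap1l5, a paternally expressed histone chaperone relative, had 138.4, 131.1 and 133.2 FPKM in Nex_cKO and 139.5, 142.8 and 153.3 FPKM in Nex_Ctrl. Its groups did not overlap by a margin of about 1 FPKM, and its log2 change of -0.11 was not called (95% interval -0.28 to 0.05, adjusted p = 0.399).

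Peg13, a paternal noncoding RNA that lies inside the maternally expressed trafficking gene Trappc9 on chromosome 15, had 94.4 ± 2.01 FPKM in Nex_cKO and 89.2 ± 2.65 FPKM in Nex_Ctrl (log2 change 0.08, 95% interval -0.07 to 0.23). Trappc9 had a change of -0.06 (95% interval -0.25 to 0.14). Both genes lie on the same strand, so strand could not tell their reads apart where they overlap. Rasgrf1, a neuronal exchange factor for Ras, had a change of 0.01 (-0.17 to 0.20), Impact, a regulator of translation, one of 0.05 (-0.12 to 0.22), and Inpp5f, a lipid phosphatase, one of -0.08 (-0.26 to 0.11), all with 95% intervals in brackets. Mest, Plagl1 (joined) and Igf2r had changes of 0.14, -0.10 and -0.06, and none was called. Airn, the antisense RNA that silences Igf2r outside neurons, ranged from 0.115 to 1.43 FPKM in Nex_cKO and 0.263 to 1.48 FPKM in Nex_Ctrl (95% interval of the log2 change -0.74 to 0.73), and was not called.

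**Figure D3:**
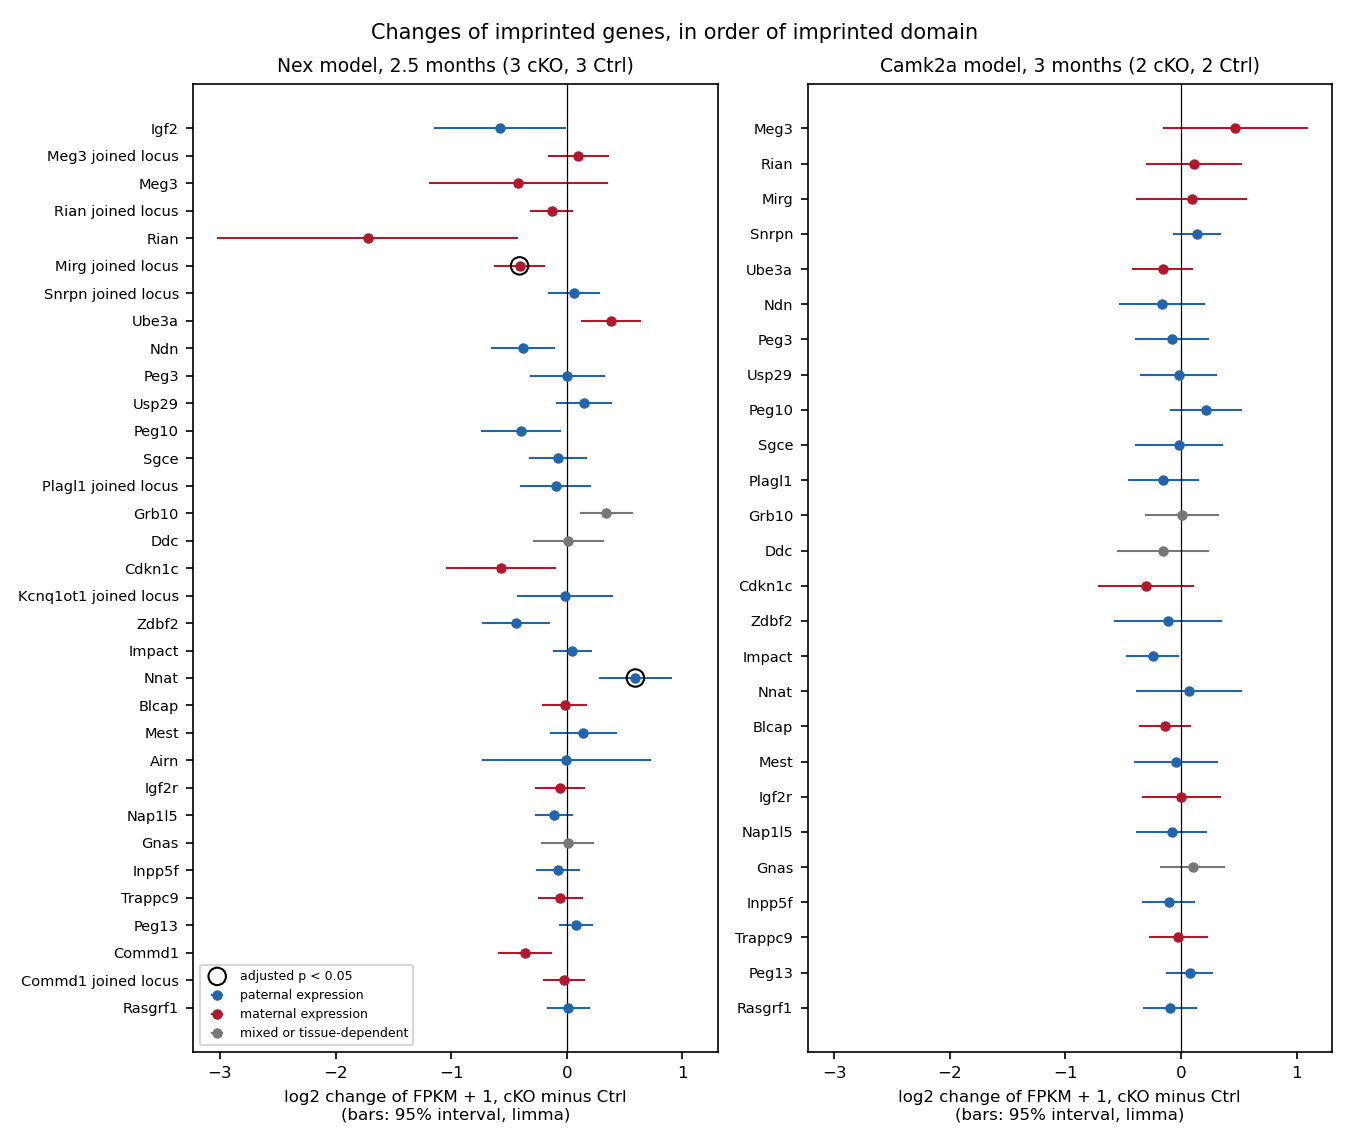
The log2 change of FPKM + 1, cKO minus control, on the x axis with its 95% limma interval for every tested imprinted row, listed by imprinted domain, in the Nex model (left) and the Camk2a model (right). Colours give the expressed allele and black rings mark the 2 rows with adjusted p under 0.05, Nnat at 0.59 and the Mirg locus at -0.41. No row of the Camk2a model is ringed.

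The second comparison asks whether imprinted genes differed after later deletion by Camk2a-Cre. Of the 39 members 26 were tested and 0 were called by limma. At an unadjusted p under 0.05 there was 1 member (3.85%), against 6.96% of all rows tested. That member was Impact, with 55.6 and 51.8 FPKM in Camk2a_cKO and 66.0 and 61.5 FPKM in Camk2a_Ctrl (log2 change -0.24, SE 0.09, adjusted p = 0.685). The changes of the 26 members ran from -0.30 (Cdkn1c) to 0.47 (Meg3), with a median of -0.03 beside -0.01 over all rows. Groups did not overlap at 12 of 26 members (46.2%), against 37.3% of all rows.

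Neither gene called in the Nex model stood out at 3 months. Nnat had 9.80 and 9.76 FPKM in Camk2a_cKO and 7.40 and 11.5 FPKM in Camk2a_Ctrl, so that both cKO libraries lay between the controls (log2 change 0.07, 95% interval -0.39 to 0.53). Mirg had 1.41 and 0.791 FPKM in Camk2a_cKO and 1.004 and 0.895 FPKM in Camk2a_Ctrl, from 97 to 183 recovered reads a library (log2 change 0.09, 95% interval -0.39 to 0.57). Camk2a_cKO replicate 1 was the highest of the 4 libraries for all 3 noncoding RNAs of the domain. Meg3 had 54.5 and 31.6 FPKM in Camk2a_cKO and 33.9 and 26.0 FPKM in Camk2a_Ctrl, and Rian had 23.7 and 17.3 FPKM in Camk2a_cKO and 20.5 and 16.9 FPKM in Camk2a_Ctrl. The log2 change of Meg3 was 0.47 (95% interval -0.16 to 1.10).

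Ube3a had 5.45 and 5.35 FPKM in Camk2a_cKO and 6.51 and 5.79 FPKM in Camk2a_Ctrl (log2 change -0.16, 95% interval -0.42 to 0.10). Ndn had 38.4 and 29.9 FPKM in Camk2a_cKO and 34.6 and 41.7 FPKM in Camk2a_Ctrl, with overlap. Snrpn had 187 and 190 FPKM in Camk2a_cKO and 174 and 168 FPKM in Camk2a_Ctrl, which did not overlap (log2 change 0.14, 95% interval -0.07 to 0.34). Peg10 had 4.92 and 5.84 FPKM in Camk2a_cKO and 4.84 and 4.15 FPKM in Camk2a_Ctrl (log2 change 0.22, 95% interval -0.10 to 0.53).

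The 13 members not tested at 3 months stayed under FPKM 1 in every library. Igf2 had 21 and 19 recovered reads in Camk2a_cKO and 12 and 34 in Camk2a_Ctrl. Calcr and Phlda2 had 0 reads in all 4 libraries, and H19 had 0 and 1 in Camk2a_cKO and 1 and 0 in Camk2a_Ctrl, where a count of 0 allows up to 3 reads a library, counting error only. Kcnq1ot1 had 153 to 168 reads in Camk2a_cKO and 126 to 147 in Camk2a_Ctrl, and Airn had 6 to 10 in Camk2a_cKO and 9 in each Camk2a_Ctrl library. Levels were not compared across the tables, which were made and normalized separately.

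The changes in the 2 models were compared by the difference of the log2 changes, Nex minus Camk2a, over 26 members tested in both. Driver, age and table differ together between the models, and so do markers of sex: Ddx3y stood at 11.0 to 12.4 FPKM and Xist at 0 to 0.00939 FPKM in the 4 Camk2a libraries, while 5 of the 6 Nex libraries had Ddx3y at 0 and Xist at 33.6 to 46.5 FPKM. Of these members 0 passed, against 0.563% of all 10842 rows tested. At an unadjusted p under 0.05 there were 4 members (15.4%), against 13.5% of all rows. Ube3a had the largest positive value, 0.54 (SE 0.17, 95% interval 0.18 to 0.91, adjusted p = 0.193), and Peg10 the largest negative value, -0.61 (SE 0.22, adjusted p = 0.273). Mirg had -0.50 (95% interval -0.92 to -0.09, adjusted p = 0.298) and Impact 0.29 (adjusted p = 0.324). That of Nnat was 0.52 (95% interval -0.02 to 1.07, adjusted p = 0.388), so the rise of Nnat in the Nex model is not shown to differ from its value at 3 months.

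**Figure D4:**
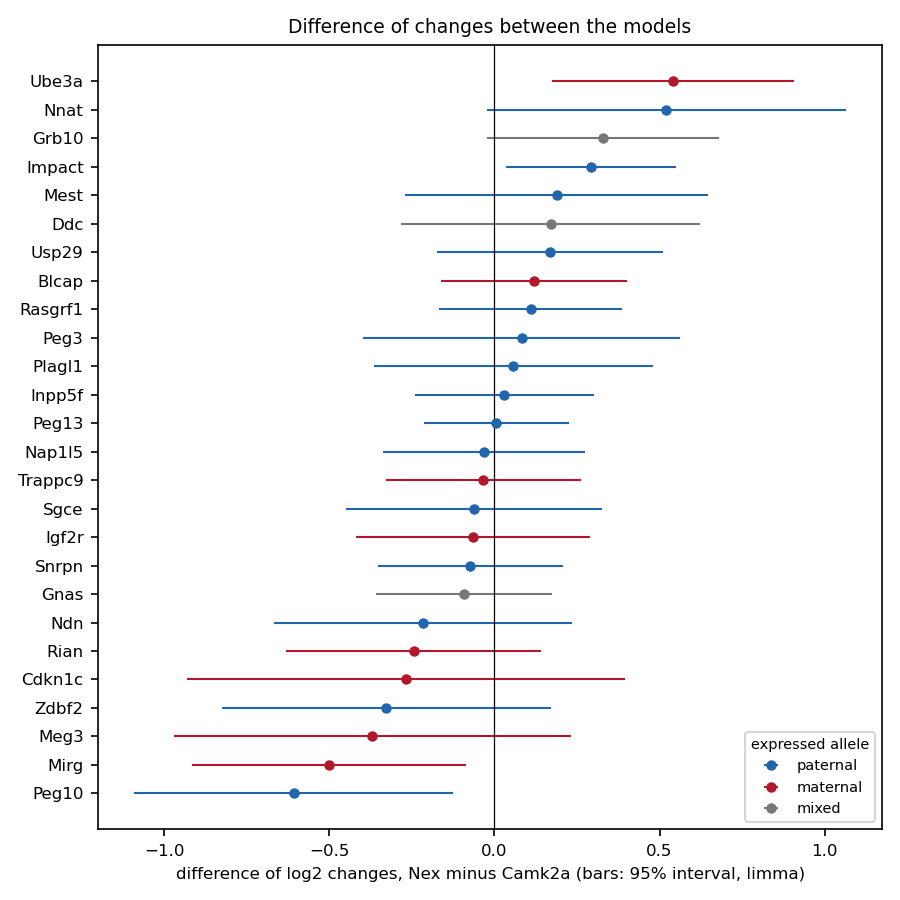
The difference of log2 changes between the models, Nex minus Camk2a, on the x axis with its 95% limma interval for the 26 imprinted genes tested in both, sorted by value and coloured by expressed allele. Ube3a at 0.54 and Peg10 at -0.61 are the ends of the range, and no difference passed an adjusted p of 0.05.

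A list of 50 other imprinted genes and neighbours in imprinted domains was read in the same fits. Its rows are not wholly separate from those of the members at 2.5 months. Those joining Zrsr1 with Commd1, Snhg14 and Snurf with Snrpn, and Kcnq1 with Kcnq1ot1 were counted in both sets, and none was called. At 2.5 months 2 were higher and 2 lower of 33 rows tested (12.1%, against 8.53% of all rows), with a median log2 change of -0.04, and at 3 months 0 of 31 were called, with 2 (6.45%) at an unadjusted p under 0.05, against 6.96% of all rows. The joined locus of Ascl2, a basic helix-loop-helix factor, and Tspan32, a tetraspanin of blood cells, both in the Kcnq1ot1 domain, had 1.10, 1.29 and 1.64 FPKM in Nex_cKO and 0.142, 0.132 and 0.208 FPKM in Nex_Ctrl (log2 change 1.01, SE 0.13, adjusted p = 0.00183). It could enter the test only through its cKO libraries, and the call was kept without each library in turn. Which of the 2 genes it reads cannot be told from the joined value. A row of Tspan32 alone was untested, at 0.0463 to 0.15 FPKM in Nex_cKO and 0 to 0.0948 FPKM in Nex_Ctrl. At 3 months Ascl2 alone, also untested, had 0.0692 and 0.44 FPKM in Camk2a_cKO and 0.0716 and 0.0623 FPKM in Camk2a_Ctrl. Tspan32 had at most 0.00932 FPKM there.

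Htr2a, the serotonin 2A receptor, had 12.4, 16.2 and 12.7 FPKM in Nex_cKO and 7.30, 10.1 and 8.84 FPKM in Nex_Ctrl (log2 change 0.60, adjusted p = 0.0263), and lost its call without Nex_cKO replicate 2 (0.0504) and Nex_Ctrl replicates 1 and 3 (0.093 and 0.083). Begain, a protein of the postsynaptic side at the edge of the Dlk1-Dio3 domain, had 66.2, 72.5 and 68.7 FPKM in Nex_cKO and 81.8, 86.5 and 88.6 FPKM in Nex_Ctrl (log2 change -0.31, adjusted p = 0.031). It lost its call without Nex_cKO replicate 1 (0.123), without Nex_Ctrl replicates 1, 2 and 3 (0.0763, 0.115 and 0.142), with quantile normalization (0.155) and with median ratio rescaling (0.0525). Qpct, a glutaminyl cyclase, had 2.44, 2.85 and 1.51 FPKM in Nex_cKO and 5.21, 3.45 and 4.49 FPKM in Nex_Ctrl (log2 change -0.73, adjusted p = 0.0417). It lost its call without Nex_cKO replicates 1 and 3 (0.0913 and 0.0593), without Nex_Ctrl replicates 1 and 3 (0.154 and 0.134), with no filter (0.0785) and with median ratio rescaling (0.0504).

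A list of 30 factors that establish or keep imprints held DNA methyltransferases, ZFP57 with its partner TRIM28, CTCF and H3K36 methyltransferases with NSD1 itself. Nsd1 was read there at 2.5 months only in the row joined with Prelid1. No row was found at 2.5 months under the names Nsd2 and Nsd3, so these 2 were read only at 3 months. Of this list 21 rows were tested at 2.5 months and 22 at 3 months. In either model 0 were called by limma, against 8.53% and 0% of all rows. At an unadjusted p under 0.05 there were 4 (19%, against 23.5% of all rows) and 1 (4.55%, against 6.96%). Their median log2 changes were -0.02 and -0.04.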

How the data were processed

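The FPKM values (fragments per kilobase of transcript, scaled to library size) were made and deposited by the authors, in a table for each age. Tools listed in the submitters' processing notes are STAR, cutadapt, DESeq2 and Cufflinks 2.2.1, with builds mm10 and GRCm38, and their roles are not given in the sources used here. The tables were fitted apart. Rows without a name (4463 at 2.5 months) were left out, and where a name recurred the row of highest mean was used (1864 rows dropped at 2.5 months, 105 at 3 months). FPKM times the deposited gene length was a whole multiple of 1 step per library for 100% of values at 3 months (tolerance 0.1), which gave reads per gene. The unit did not admit a count test.

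A row was tested where FPKM reached 1 in at least 3 libraries (Nex) or 2 (Camk2a), on log2(FPKM + 1), with limma 3.58.1 (eBayes with trend) in R 4.3.3, two-sided, with Benjamini-Hochberg adjustment. This scale understates changes of low genes. For the difference between models, a 3-month gene was paired with the 2.5-month row of highest mean holding its name, and a joined row with its gene of most reads. Members, their parental classes and the lists were chosen with earlier results of these data known. By rule, called members are given by library, other members by means or ranges, and called genes of the 2 related lists by smallest adjusted p, up to 4 per model. Uncalled members shown by library were picked after their values were seen. Alternatives were the pseudocount, the filter, 2 scalings, a replicate block and each library left out.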

Additional observations from a re-analysis of the deposited data

Results flagged for a closer look

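Htr2a, a neighbour-list gene and not one of the 39 members, had changes of opposite sign in the 2 models, and the difference itself passed: 1.56 on the log2 scale, Nex minus Camk2a (SE 0.22, limma adjusted p = 0.0121). It had 7.57 and 6.24 FPKM in Camk2a_cKO and 16.5 and 12.3 FPKM in Camk2a_Ctrl (log2 change -0.96, adjusted p = 0.369), and was higher in Nex_cKO than in Nex_Ctrl. Driver, age, table and sex markers (Ddx3y at 11.0 to 12.4 FPKM in all 4 Camk2a libraries, and at 0 in 5 of 6 Nex libraries) cannot be told apart in this difference.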

How the results depend on the processing

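In the Nex model the number of imprinted rows called, 2 with all libraries, was 0 with no filter on low values and 1 with median ratio rescaling, and 0 to 4 when each library was left out in turn. With quantile normalization it was also 2, but the rows were Nnat and Zdbf2. Over all rows of the Nex model 1069 calls became 544 with a filter of FPKM 5 and 603 to 1265 with 1 library left out. Median ratio rescaling gave 607 higher and 325 lower rows instead of 560 and 509. In the Camk2a model 0 members were called under every alternative run, and over all rows 1 was called with a filter of FPKM 5 (Gm5805, named after its values were seen) and 0 otherwise. Differences between the models numbered 61 over all rows, 291 with no filter, 8 with a filter of FPKM 5, 36 with a replicate block and 14 to 107 with 1 library left out. They numbered 0 among members under every alternative run. With a replicate block the Nex model had 769 calls, 2 of them members, and the Camk2a model 0, and Begain and Qpct lost their calls (adjusted p = 0.0917 and 0.0555). Same-numbered cKO and control libraries did not deviate together (correlations 0.02, -0.10 and -0.10 for Nex replicates 1 to 3 and 0.05 for Camk2a), and no Nex cKO library correlated best with its own number, so the numbers were not taken as pairs. Among member values, 5 became called and 14 lost a call over 387 combinations of row and alternative in the Nex model, and 0 changed call in the Camk2a model. No called member changed sign under any alternative run, and 33 and 22 uncalled values did so in the Nex and Camk2a models. Leaving out a library of the Camk2a model leaves a group of 1, which is then assumed to vary like the other group. The small groups, of 3 or 2 libraries, limit precision, as the widths of the 95% intervals show.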
